A study of Mus musculus with 18 samples.

Results

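Max-null embryonic stem cells (ESCs) that overexpress p110 alpha were set against plain Max-null ESCs, both without doxycycline (Dox), the drug that ablates Max expression in these lines. The comparison is a single pair among the 18 mouse arrays of the series, the array of untreated p110 alpha Max-null ESCs minus the array of untreated Max-null ESCs, chosen by their titles. It holds 1 array per group, so no test of the pair was possible, and each difference in it has no replicate check. Of 18194 genes with a probe set naming that gene alone, 13212 had a log2 level above 4.64, the 40th percentile of the table, in at least 1 of the 2 arrays. Each gene was read from its probe set with the highest mean over all arrays.

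The first group carried a p110 alpha cDNA on the Max-null background, received no drug and was grown in serum medium with LIF. The second group had the same Max-null background, medium and absence of drug, with no added p110 alpha. Both are labelled as male 129SV cells of the EBRTcH3 type, an ESC line built for tetracycline-controlled expression of transgenes. The promoter behind the p110 alpha cDNA, the number of clones and whether the lines were cultured side by side are not given in the sources used here. Other arrays enter below as context. These are p110 alpha Max-null ESCs with Dox (day not given) and Max-null ESCs at Dox day 4 and day 6. Untreated ESCs overexpressing c-Myc, either wild-type or T58A, and untreated parental EBRTcH3 ESCs (replicates 1 and 2) are used as well, all of them labelled as male 129SV cells and grown in serum with LIF. The titles of the 2 parental arrays differ only in the mark ver2, carried by the array called replicate 2 here.

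p110 alpha, encoded by Pik3ca, is a catalytic subunit of phosphatidylinositol 3-kinase (PI3K), which makes the lipid signal that recruits and activates Akt. Akt signalling promotes growth and glycolysis through mTORC1 and keeps FOXO transcription factors out of the nucleus, and in mouse ESCs it favours self-renewal. Max is the partner that Myc proteins need to bind DNA, and its loss in mouse ESCs is known to derepress germ cell genes. The question behind the pair is what p110 alpha overexpression goes with before Max is lost.

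Median log2 levels were 5.31 to 5.52 in 14 arrays, both arrays of the pair included, and 5.03 to 5.05 in the remaining 4, among them parental replicate 1. Those 4 therefore appear to have been normalised in a separate run, which no label states. Over all probe sets the pair correlated at r = 0.986, and the p110 alpha array correlated with parental replicate 2 at r = 0.992. All 10 of 10 markers of ESCs were measured, at 9.64 to 13.95 in p110 alpha Max-null ESCs and 9.91 to 14.26 in Max-null ESCs. None of the 10 differed by 2-fold, and their log2 differences ran between -0.61 for Tdgf1 and 0.46 for Klf4. Pou5f1, the pluripotency factor Oct4, read 12.96 in p110 alpha Max-null ESCs and 13.01 in Max-null ESCs.

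Y-linked genes went against the male label in both Max-null lines. Eif2s3y, a translation factor gene on the Y chromosome, read 3.06 (untreated) and 3.67 (Dox) in p110 alpha Max-null ESCs. The plain Max-null arrays had 4.95 untreated, 4.68 on Dox day 4 and 4.72 on Dox day 6. In the other 13 arrays of the series, all of parental and c-Myc lines, it lay between 9.00 and 10.06. A probe set of Uty, a histone demethylase gene on the Y chromosome, lay between 2.68 and 3.05 in the 5 Max-null arrays and between 6.64 and 7.98 in the other 13. Probe sets of Kdm5d, another Y-linked gene, read at most 3.93 in every array of the series and so do not bear on this. The 2 arrays of the pair thus shared low Y-linked signal, and every value below that sets them beside parental or c-Myc arrays also crosses this difference between the lines. Whether the Max-null lines share the origin of the other lines was not tested.

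The manipulated genes were read first. Pik3ca has 6 probe sets, and the one used here read 8.82 in p110 alpha Max-null ESCs and 8.50 in Max-null ESCs. Over all 6 the log2 difference ran between -0.22 and 0.31, so no Pik3ca probe set showed the overexpression. Whether any of them lies in the introduced cDNA, or matches its species, is not stated, so these readings do not check the label. Max read 6.70 in p110 alpha Max-null ESCs and 7.09 in Max-null ESCs, against 8.17 to 8.49 in the 4 untreated serum arrays of parental and c-Myc lines. Under Dox, Max was at 6.33 in p110 alpha Max-null ESCs and at 6.89 and 7.18 in Max-null ESCs, and whether its probe set covers the Dox-controlled Max is not stated. Pik3r1, which encodes a regulatory subunit that binds p110 alpha, read 7.87 in p110 alpha Max-null ESCs and 7.74 in Max-null ESCs, and Akt1 read 6.61 and 6.71.

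In the pair, 177 genes (1.34% of 13212) were at least 2-fold higher in p110 alpha Max-null ESCs, which is 1 on the log2 scale, and 632 (4.78%) were at least 2-fold lower. Genes 4-fold apart were 18 higher and 68 lower. The median log2 difference over all 13212 genes was -0.06, with an SD across genes of 0.52, so lower genes outnumbered higher ones without a general shift of this size. At the edge, Arhgef2 and Dgkh lay just inside the higher genes with differences of 1.001 and 1.005, and Hs6st2 and Gadd45a just outside with 0.998 and 0.996. By chromosome, the median difference ran between -0.106 on chromosome 9 and 0.015 on chromosome 12, leaving out the Y chromosome, which had 3 genes past the level filter.

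**Figure D1:**
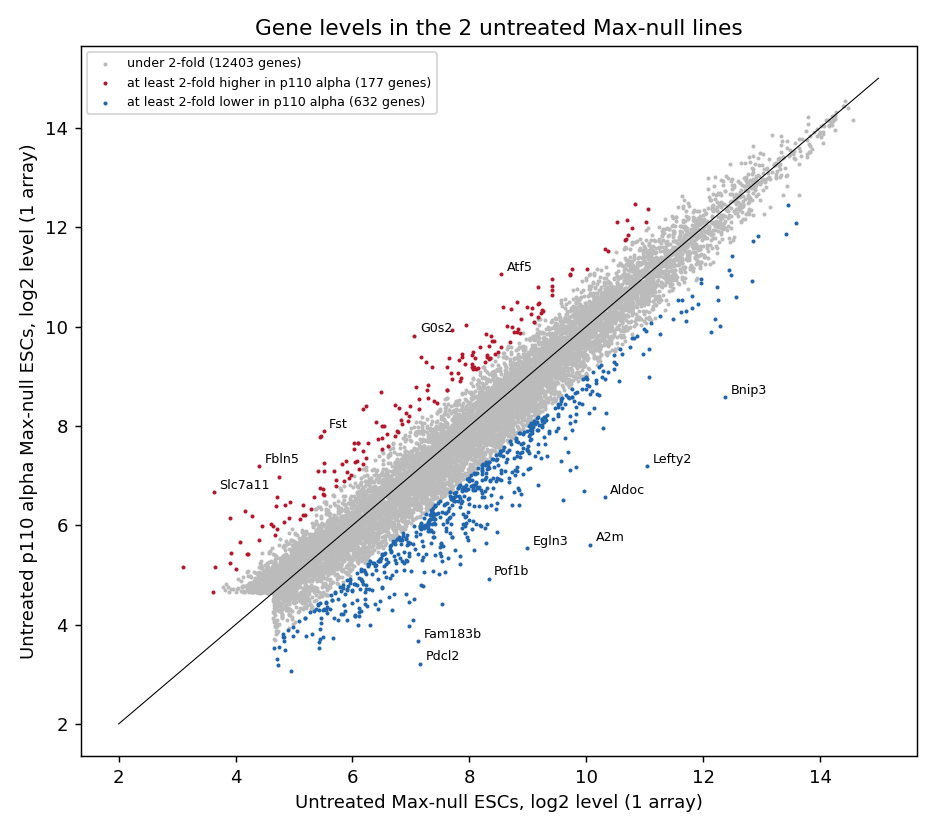
Log2 level of each of 13212 genes in untreated p110 alpha Max-null ESCs (vertical axis) against untreated Max-null ESCs (horizontal axis), 1 array each. Red points are the 177 genes at least 2-fold higher and blue points the 632 at least 2-fold lower in p110 alpha Max-null ESCs, the line marks equal levels, and names mark 13 of the largest differences.

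The plot of levels in the pair shows blue points over the whole range of levels, with the 5 largest differences all on the lower side. A2m, a secreted protease inhibitor, read 5.61 in p110 alpha Max-null ESCs and 10.07 in Max-null ESCs, 22.0-fold lower. A2m was also below in the Dox arrays, at 7.50 in p110 alpha Max-null ESCs against 10.51 and 11.25 in Max-null ESCs. The parental arrays were as far apart, with 4.59 in replicate 2 and 8.89 in replicate 1, a difference of -4.51 relative to their median shift, beside -4.46 in the pair. Pdcl2, a phosducin-like chaperone of the germ line, read 3.21 and 7.16 in the pair. Its Dox values did not show this gap, with 4.18 in p110 alpha Max-null ESCs and 3.87 at both days in Max-null ESCs. Lefty2, a secreted antagonist of Nodal, read 7.19 in p110 alpha Max-null ESCs and 11.04 in Max-null ESCs, 14.4-fold lower.

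Bnip3, a mitophagy receptor induced by low oxygen, read 8.58 in p110 alpha Max-null ESCs and 12.38 in Max-null ESCs, 14.0-fold lower. Aldoc, a glycolytic aldolase, read 6.56 and 10.32, 13.5-fold lower, although the mean of all its probe sets differed by only -1.95 on the log2 scale. The other 10 of the 15 largest lower differences were those of Fam183b, Egln3, Pof1b, Anxa2, Selenop, Naaa, H2-Q2, Zc3h6, Rhpn2 and Pfkl, between -3.47 and -2.64. Fam183b, Selenop, H2-Q2 and Zc3h6 lay under the level of the filter in p110 alpha Max-null ESCs, as did Pdcl2. Selenop, which carries selenium in plasma, read 4.42 in p110 alpha Max-null ESCs and 7.53 in Max-null ESCs. Under Dox it was at 5.37 in p110 alpha Max-null ESCs against 9.97 and 10.31 in Max-null ESCs, so the lines lay farther apart there. H2-Q2 belongs to the class I histocompatibility genes, whose close copies can share probes, so its value may not be that of a single gene. With the mean of all probe sets of a gene, the log2 differences of Anxa2, Naaa and Zc3h6 shrank to -1.34, -1.74 and -1.38.

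The largest higher difference was that of Slc7a11, the cystine transporter subunit that feeds glutathione synthesis. It read 6.66 in p110 alpha Max-null ESCs and 3.63 in Max-null ESCs, a level under the filter, and was 8.17-fold higher. The mean of its probe sets gave a log2 difference of 1.89. Fbln5, an extracellular matrix protein of elastic fibres, read 7.19 in p110 alpha Max-null ESCs and 4.40 in Max-null ESCs. G0s2, an inhibitor of triglyceride breakdown, read 9.81 and 7.06 in the pair, and under Dox 9.52 in p110 alpha Max-null ESCs against 6.12 and 5.97 in Max-null ESCs. Both p110 alpha arrays were thus above all 3 Max-null arrays for G0s2.

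Atf5, a transcription factor of the amino acid stress response, read 11.05 in p110 alpha Max-null ESCs and 8.55 in Max-null ESCs, 5.66-fold higher. Under Dox it was at 11.07 against 8.04 and 7.50. Fst, which binds and blocks activins, Mir22hg, the host transcript of the microRNA miR-22, and Cdh4, a classical cadherin, were 2.37, 2.34 and 2.32 higher on the log2 scale. The last 8 of the 15 were Ptgs2, Plk2, Ror1, the locus named LOC102631979, Atf3, Inhbe, Efnb2 and Sox7, with 2.23 to 2.11. Ptgs2 and Sox7 lay under the level of the filter in Max-null ESCs, as did Fbln5. Plk2, Ror1 and Efnb2 went the other way under Dox, where Plk2 read 9.52 in p110 alpha Max-null ESCs against 10.26 and 10.50 in Max-null ESCs. With the mean of all probe sets, Ror1 and Efnb2 dropped under 2-fold, at 0.92 and 0.93.

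**Figure D2:**
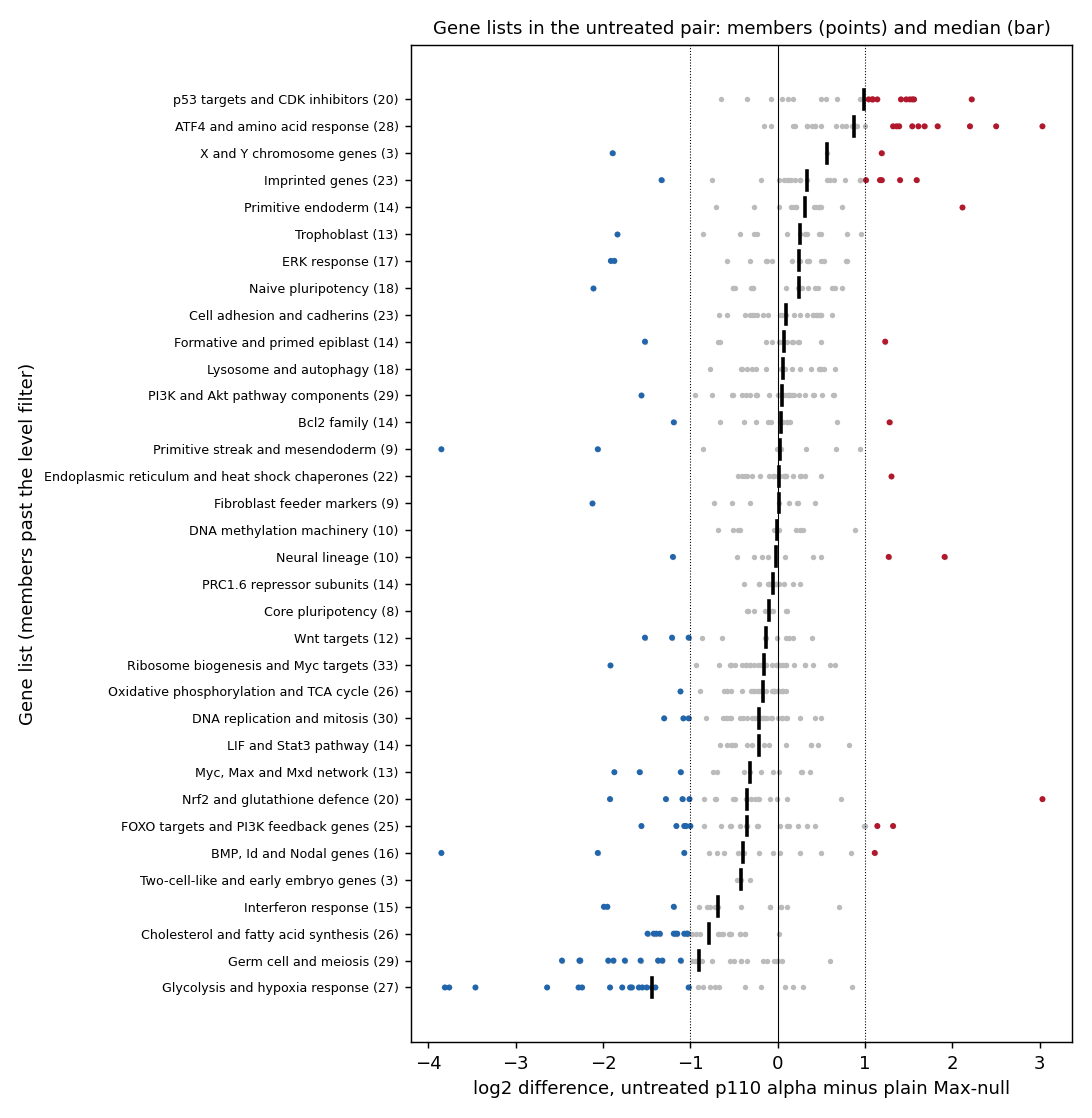
Log2 difference, untreated p110 alpha Max-null minus untreated Max-null ESCs (1 array each), of the members of 34 gene lists that passed the level filter, with their number in brackets and the list median as a bar. Red and blue points are members at least 2-fold higher and lower, and the dotted lines mark 2-fold. The lists with the lowest and highest medians are the glycolysis and hypoxia list at -1.44 and the p53 list at 0.99.

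Of the 34 gene lists, 5 had 10 or more members at least 2-fold apart, and the plot of lists shows them at the ends of the order. In the lists of glycolysis and hypoxia, germ cells, and cholesterol synthesis those members were all lower. In the lists of p53 targets and of the ATF4 response they were all higher. The lists were written with earlier results of these data known, and no list was tested.

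Glycolysis and hypoxia genes held the greatest shift. Of 27 members, all past the level filter, 16 were at least 2-fold lower, 0 were at least 2-fold higher and 11 were neither, beside 4.78% lower among all genes. Their median difference was -1.44, beside -0.06 over all genes. Low oxygen stabilises HIF transcription factors, which bind hypoxia response elements near genes of glycolysis and oxygen sensing, and Akt and mTORC1 are known to raise the same enzymes.

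The stretches upstream of 4 of the lowest members are shown because they hold the core letters of that element, in capitals. The core was searched as ACGTG or GCGTG on either strand, so that it also reads CACGT or CACGC here, and it overlaps the E-box letters CACGTG. Sequences are from RefSeq on GRCm38.p6, in the direction of transcription. The Bnip3 stretch is chr7:138909517-138909643 on the minus strand, the Aldoc stretch chr11:78323003-78323072 on the plus strand, the Egln3 stretch chr12:54204044-54204123 on the minus strand and the Pfkl stretch chr10:78009847-78009926 on the minus strand.
Bnip3: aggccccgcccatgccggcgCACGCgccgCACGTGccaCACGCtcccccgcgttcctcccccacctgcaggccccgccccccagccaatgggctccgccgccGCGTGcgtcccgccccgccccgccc
Aldoc: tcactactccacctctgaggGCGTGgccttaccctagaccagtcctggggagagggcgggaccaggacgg
Egln3: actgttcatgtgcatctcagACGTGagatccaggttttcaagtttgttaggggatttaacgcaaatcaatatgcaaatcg
Pfkl: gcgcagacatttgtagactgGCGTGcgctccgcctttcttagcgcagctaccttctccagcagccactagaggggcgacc

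Bnip3 held 5 core matches within 250 bases upstream of its start, where its CACGTG counts once on each strand. Aldoc, Egln3 and Pfkl held 1 each. Of the 16 lower members, 15 had a promoter window and 14 of these (93.3%) held the core at least once. The core is common, since 59.9% of the genes past the level filter with a window (6383 of 10648) and 41.5% of all genes with a window held it. Among all genes at least 2-fold lower the count was 299 of 498, and among those at least 2-fold higher 80 of 142 (56.3%). The core therefore did not set the lower genes as a whole apart from the background, and a match is a description of letters, not a site.

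The glycolytic enzymes were lower at most steps. Pfkl, the liver-type phosphofructokinase, read 7.18 in p110 alpha Max-null ESCs and 9.82 in Max-null ESCs, 6.23-fold lower. Tpi1, triosephosphate isomerase, read 9.89 and 12.13, 4.73-fold lower. Ldha, which turns pyruvate into lactate, read 10.91 and 12.83, 3.78-fold lower. The untreated Max-null array was the high one for these genes.

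Pkm, pyruvate kinase, read 10.12 in p110 alpha Max-null ESCs and 11.71 in Max-null ESCs, and Aldoa, the main aldolase, 11.86 and 13.41. Pgk1, phosphoglycerate kinase, read 12.08 and 13.58, Pfkp, the platelet-type phosphofructokinase, 11.04 and 12.48, and Hk1, a hexokinase, 7.47 and 9.17. These 5 were between 2.71-fold and 3.24-fold lower, and with the probe set of highest variance Hk1 dropped to a log2 difference of -0.85. Hk2, Pgam1 and Pfkm, further enzymes of the path, were under 2-fold, with differences of -0.91, -0.86 and -0.78. Gapdh read 13.63 in p110 alpha Max-null ESCs and 13.82 in Max-null ESCs, so not every step differed.

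Glucose uptake was split. Slc2a1, the glucose transporter GLUT1, read 12.44 in p110 alpha Max-null ESCs and 13.46 in Max-null ESCs, 2.03-fold lower, and Slc2a3, the transporter GLUT3, read 13.78 and 13.69. Among oxygen sensors, Egln3, a prolyl hydroxylase that marks HIF for breakdown, read 5.54 and 8.99, 11.0-fold lower, and its relative Egln1 read 7.36 and 8.76, 2.63-fold lower. P4ha1, a collagen prolyl hydroxylase, was 4.84-fold lower, Ankrd37 3.44-fold and Ndrg1 3.17-fold. Vegfa, the vascular growth factor and a classical HIF target, read 8.74 in p110 alpha Max-null ESCs and 8.45 in Max-null ESCs and was not lower. Ddit4, an mTORC1 inhibitor that also belongs to the ATF4 list, read 11.77 and 10.92.

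**Figure D3:**
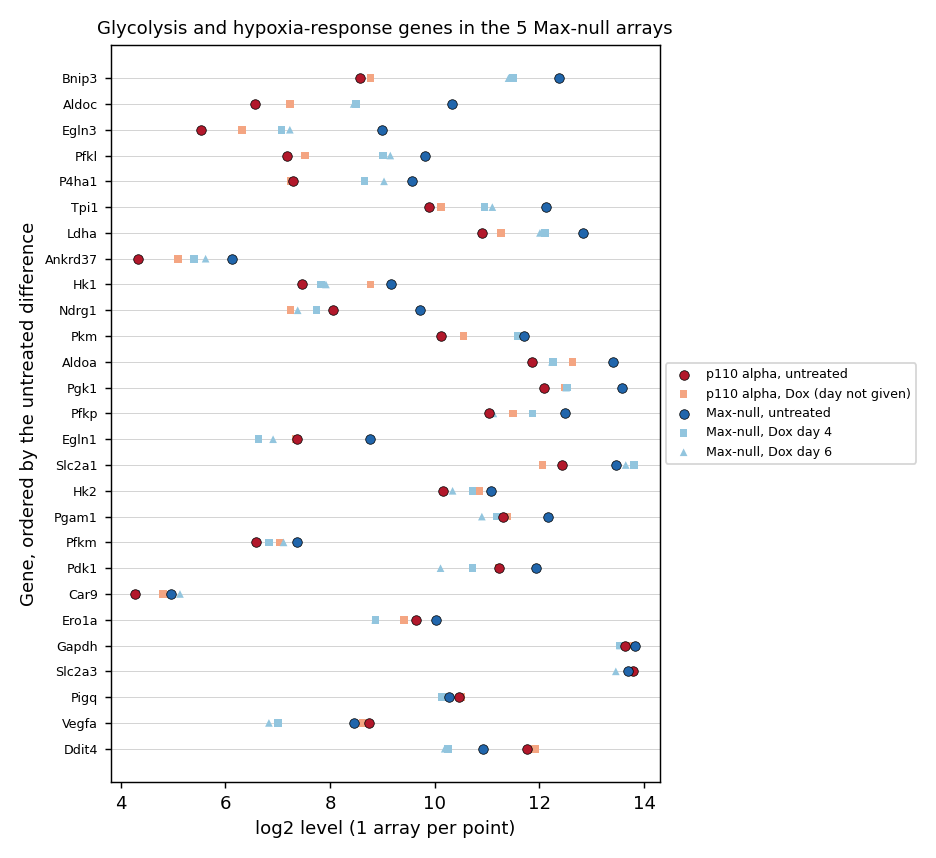
Log2 level of the 27 glycolysis and hypoxia genes in the 5 Max-null arrays, 1 array per point, ordered by the difference in the untreated pair. Dark circles are the untreated arrays (red for p110 alpha Max-null, blue for Max-null), and light symbols are the Dox arrays. Dark blue lies right of dark red for 23 of the 27 genes, and the light symbols lie closer together.

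The Dox arrays of the 2 lines lay closer together for these genes, as the plot of the 27 members shows. Their median difference, p110 alpha Max-null with Dox minus Max-null with Dox, was -0.05 against day 4 and -0.03 against day 6, beside 0.11 and 0.12 over all genes. These 2 values share the p110 alpha Dox array, and neither shares an array with the untreated pair. Bnip3 still differed there, at 8.77 in p110 alpha Max-null ESCs against 11.50 and 11.41, while Pgk1 did not, at 12.48 against 12.53 and 12.51. Over the 5 arrays, both p110 alpha arrays lay below all 3 Max-null arrays for 11 of the 27 members and above for 3, beside 14.0% below and 16.4% above among all 13212 genes. The pair is part of that count.

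The same genes also separated the 2 untreated parental arrays, whose titles differ only in the mark ver2 on replicate 2. Bnip3 read 8.52 in parental replicate 2 and 11.53 in replicate 1, Pgk1 read 12.08 and 13.34, and Ldha 10.77 and 12.62. Relative to the median shift of 0.21 between these arrays, the 27 members had a median difference of -1.43, replicate 2 minus replicate 1. For these 3 genes the p110 alpha array lay near replicate 2 and the untreated Max-null array near replicate 1. The part of this array difference in the result was not tested.

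The ATF4 and amino acid response was higher. ATF4 is the transcription factor of the integrated stress response, switched on when amino acids run short, and mTORC1 is known to raise its translation. Of 28 members, all past the level filter, 10 were at least 2-fold higher, 0 were at least 2-fold lower and 18 were neither, beside 1.34% higher among all genes. The median difference was 0.87, and with the mean of all probe sets 0.75.

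Upstream stretches of 4 of the 10 are shown because they hold the composite letters that ATF4 binds with C/EBP proteins, in capitals. The motif was searched as TGATGNAA on either strand, so that it also reads TTNCATCA. From RefSeq on GRCm38.p6, the Slc7a11 stretch is chr3:50443620-50443699 on the minus strand and the Atf3 stretch chr1:191183384-191183463 on the minus strand. The Vldlr stretch is chr19:27216800-27216879 on the plus strand and the Chac1 stretch chr2:119351029-119351108 on the plus strand.
Slc7a11: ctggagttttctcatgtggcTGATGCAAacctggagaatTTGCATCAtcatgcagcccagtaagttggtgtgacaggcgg
Atf3: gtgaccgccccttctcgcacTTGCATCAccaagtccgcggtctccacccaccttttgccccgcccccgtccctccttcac
Vldlr: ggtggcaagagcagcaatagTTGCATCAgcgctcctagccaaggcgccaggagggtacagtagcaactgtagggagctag
Chac1: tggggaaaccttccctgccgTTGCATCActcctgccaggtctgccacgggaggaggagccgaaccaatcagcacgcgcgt

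Slc7a11 held 2 matches that face each other, and Atf3, Vldlr and Chac1 held 1 each. All 10 higher members had a promoter window, and these 4 held the letters. The share was 2.39% among genes past the level filter with a window (255 of 10648), 3.91% among all genes with a window and 9.15% among the genes at least 2-fold higher (13 of 142). Those 13 include the 4. Among genes at least 2-fold lower the share was 2.81%. The E-box CACGTG was in 5.63% of the higher genes, 10.8% of the lower and 9.87% of those past the filter, and the forkhead letters GTAAACA were in 2.11%, 3.82% and 2.82%, each on either strand.

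Among transcription factors of this response, Atf3, a stress-induced repressor, read 8.68 in p110 alpha Max-null ESCs and 6.49 in Max-null ESCs, 4.58-fold higher. Ddit3, which encodes the stress factor CHOP, read 10.01 and 8.65, 2.57-fold higher. Cebpb, a partner of ATF4 on the composite site, read 10.79 and 9.18, 3.05-fold higher. Atf4 itself read 12.66 and 12.27, under 2-fold.

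Among its targets, Vldlr, a lipoprotein receptor, read 10.40 in p110 alpha Max-null ESCs and 8.57 in Max-null ESCs, and Stc2, a secreted glycoprotein, 10.49 and 8.82. Chac1, which breaks down glutathione, read 11.16 and 9.76, and Trib3, a pseudokinase that binds Akt, 11.05 and 9.73. Sesn2, which senses leucine for mTORC1, read 10.96 and 9.42. These 5 were between 2.49-fold and 3.54-fold higher. Among enzymes of serine and asparagine synthesis, Asns and Psat1 differed little, with 12.85 and 12.67 for Asns and 12.04 and 12.20 for Psat1. Phgdh was higher but under 2-fold, at 12.43 and 11.65.

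**Figure D4:**
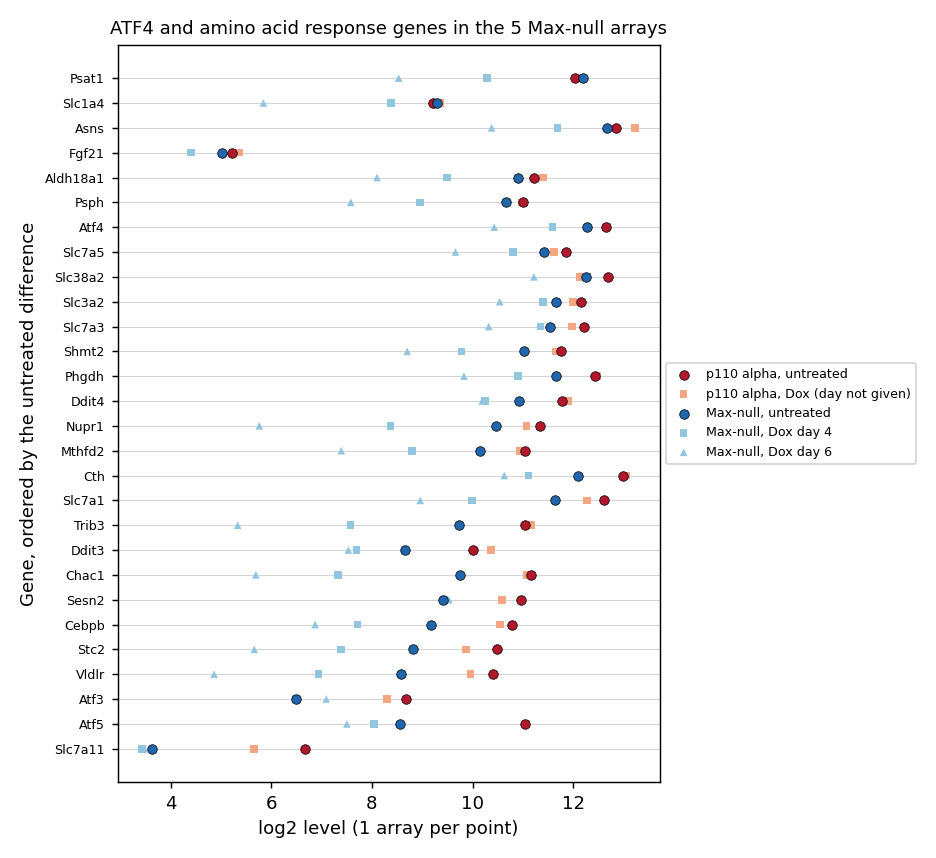
Log2 level of the 28 ATF4 and amino acid response genes in the 5 Max-null arrays, 1 array per point, ordered by the difference in the untreated pair. Dark circles are untreated arrays (red for p110 alpha Max-null, blue for Max-null), and light symbols are Dox arrays. The light blue day 6 triangles lie left of the p110 alpha points for all 28 genes.

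Under Dox the lines lay farther apart, as the plot of the 28 members shows. Their median difference was 1.91 against Max-null day 4 and 2.91 against day 6. Chac1 read 11.08 in p110 alpha Max-null ESCs with Dox against 7.32 and 5.69 in Max-null ESCs, and Trib3 read 11.17 against 7.57 and 5.33. In these genes the p110 alpha arrays with and without Dox were close, and the Max-null Dox arrays were the low ones. Both p110 alpha arrays lay above all 3 Max-null arrays for 25 of the 28 members and below for 0. Among all 13212 genes these shares were 16.4% and 14.0%, and the pair is part of each count. Between the parental arrays, replicate 2 minus replicate 1, the median of the list was 0.49, and Slc7a11 read 6.35 in replicate 2 and 3.51 in replicate 1.

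The p53 targets and CDK inhibitors held 10 of 20 members at least 2-fold higher and 0 at least 2-fold lower, beside 1.34% higher and 4.78% lower among all genes, with a median of 0.99. The transcription factor p53 restrains growth after damage or stress. Plk2, a polo-like kinase and p53 target, read 9.93 in p110 alpha Max-null ESCs and 7.71 in Max-null ESCs, 4.67-fold higher. Ccng1, a cyclin that p53 induces, read 12.15 and 10.69, and Btg2, an antiproliferative factor, 9.44 and 7.88. Phlda3, which blocks Akt at the membrane, read 9.33 and 7.82, and Sesn2 counts here too.

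Eda2r, Trp53inp1, Mdm2, Cdkn2b and Perp were between 2.06-fold and 2.65-fold higher. Mdm2, the ubiquitin ligase of p53, read 10.33 in p110 alpha Max-null ESCs and 9.24 in Max-null ESCs, and with the mean of its probe sets the log2 difference dropped to 0.91. Cdkn1a, which encodes p21, the best-known p53 target, read 9.10 and 8.98 and so differed little. Under Dox the list's median was -0.05 against day 4 and -0.04 against day 6, and Plk2 and Btg2 lay lower in p110 alpha Max-null ESCs there. Both p110 alpha arrays lay above all 3 Max-null arrays for 7 of the 20 members and below for 1. Among all genes these shares were 16.4% and 14.0%, and the pair is part of each count. Between the parental arrays the median was 0.50, and Ccng1 read 12.13 in replicate 2 and 9.49 in replicate 1.

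Cholesterol and fatty acid synthesis held 10 of 26 members at least 2-fold lower and 0 at least 2-fold higher, beside 4.78% and 1.34% of all genes, with a median of -0.79. SREBP transcription factors raise these enzymes when sterols are scarce, and Akt and mTORC1 are known to activate SREBPs. Insig1, which holds SREBPs back when sterols are plentiful and is itself their target, read 7.78 in p110 alpha Max-null ESCs and 9.28 in Max-null ESCs, 2.82-fold lower. Dhcr7, an end-stage enzyme of cholesterol synthesis, read 7.27 and 8.62. Scd1, which desaturates fatty acids, read 8.70 and 10.09, and Fdps, of the mevalonate path, 8.65 and 10.07.

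Fdft1, Cyp51, Mvd, Scd2, Srebf2 and Hmgcs1 were between 2.04-fold and 2.28-fold lower, and 25 of the 26 members lay below 0. This list depended on the probe set read, since 7 of its 10 lower members dropped under 2-fold in at least 1 of 4 alternatives, all but Insig1, Dhcr7 and Scd1. The median with the mean of all probe sets was -0.66. Between the parental arrays the list's median was -0.07, near that of all genes, and Insig1 read 8.49 in replicate 2 and 8.27 in replicate 1. Under Dox the median was -0.41 against day 4 and -0.14 against day 6.

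Germ cell and meiosis genes held 10 of 29 members past the filter at least 2-fold lower and 0 at least 2-fold higher, beside 4.78% and 1.34% of all genes. Their median was -0.90, and 4 further members lay under the level filter. Slc25a31, a germ line ADP/ATP carrier, read 5.01 in p110 alpha Max-null ESCs and 7.48 in Max-null ESCs, 5.54-fold lower. Dazl, an RNA-binding protein of germ cells, read 7.35 and 9.23. Smc1b, a meiotic cohesin, read 5.70 and 7.97, and Mael, of the piRNA pathway, 6.62 and 8.89. The untreated Max-null array was the higher one for each.

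Hormad1, Prdm1, Sycp1, Tex101, Syce2 and Taf7l were between 2.16-fold and 3.82-fold lower. Taf7l dropped under 2-fold with quantile normalisation, at -0.97. Stra8, which germ cells need to enter meiosis, did not share this, at 9.31 in p110 alpha Max-null ESCs and 9.43 in Max-null ESCs, nor did Sycp3, at 11.44 and 11.45. Under Dox the lines were farther apart, with list medians of -2.26 against day 4 and -2.04 against day 6. Dazl read 9.49 in p110 alpha Max-null ESCs with Dox against 12.40 and 12.57 in Max-null ESCs, and Sycp1 read 5.71 against 10.34 and 10.06. Between the parental arrays the list's median was -0.32, but the 4 genes given first were at least 2-fold lower in replicate 2, with -2.85 for Mael, -1.78 for Smc1b, -1.50 for Dazl and -1.09 for Slc25a31.

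The PI3K and Akt pathway components differed little. Of 29 PI3K and Akt pathway components past the filter, 1 was at least 2-fold lower and 0 higher, with a median of 0.05. That gene was Pik3ip1, which inhibits PI3K and is a FOXO target, at 5.29 in p110 alpha Max-null ESCs and 6.84 in Max-null ESCs, and with the mean of its probe sets it differed by -0.97. Under Dox it read 5.27 against 7.50 and 7.79. Of 25 FOXO targets and PI3K feedback genes, 2 were at least 2-fold higher (Trib3 and Foxo3), beside 1.34% of all genes. Another 5 were lower (Pik3ip1, Ccng2, Igf1r, Insr and Erbb3), beside 4.78% of all genes, and the list's median was -0.35.

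Insr and Igf1r, the insulin and IGF receptors that FOXO factors raise when PI3K is low, read 6.95 and 7.45 in p110 alpha Max-null ESCs and 8.00 and 8.52 in Max-null ESCs. Both dropped under 2-fold with the mean of all probe sets, as did Foxo3 and Erbb3. Under Dox, Insr and Igf1r went the other way. Insr read 7.04 in p110 alpha Max-null ESCs against 6.57 and 5.38 in Max-null ESCs, and Igf1r 8.08 against 7.01 and 6.91. Ccng2, a FOXO-induced cyclin, read 7.92 in p110 alpha Max-null ESCs and 9.07 in Max-null ESCs, and under Dox 8.00 against 9.07 and 9.37. Both p110 alpha arrays were below all 3 Max-null arrays for Ccng2. Over the 25 members this held for 6, and both lay above for 8. Among all genes these shares were 14.0% and 16.4%, and the pair is part of each count. The list's median under Dox was 0.10 against day 4 and 0.64 against day 6, beside 0.11 and 0.12 over all genes.

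In the Myc network 3 of 13 members were at least 2-fold lower and 0 higher, beside 4.78% and 1.34% of all genes. Myc read 7.03 in p110 alpha Max-null ESCs and 8.91 in Max-null ESCs, 3.66-fold lower. Under Dox it read 6.83 against 9.64 and 9.43, so both p110 alpha arrays were below all 3 Max-null arrays. The parental arrays differed in the same direction, with 7.43 in replicate 2 and 9.30 in replicate 1. Mycn, the other Myc gene of ESCs, read 10.95 in p110 alpha Max-null ESCs and 11.64 in Max-null ESCs. Mxi1, a Myc antagonist that binds Max, and Mycl, the third Myc gene, differed by -1.58 and -1.11 on the log2 scale, both under 2-fold with the mean of their probe sets. Of 33 ribosome biogenesis and Myc target genes only Ldha passed 2-fold, and the median was -0.16.

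Pluripotency genes were mostly alike in the pair, where 1.34% of all genes were higher and 4.78% lower. Among 18 naive pluripotency genes 0 were at least 2-fold higher and 1 lower, Dppa3, at 4.31 in p110 alpha Max-null ESCs and 6.43 in Max-null ESCs. Nr0b1, Klf5 and Tbx3 were 0.74, 0.66 and 0.62 higher on the log2 scale. None of 8 core pluripotency genes passed 2-fold. Among 14 formative and primed epiblast genes 1 was higher, Cd24a at 1.23, and 1 lower, Lef1 at -1.52.

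Nodal antagonists stood out among 9 primitive streak and mesendoderm genes past the filter, of which 2 were lower and 0 higher. Among all genes 4.78% were lower and 1.34% higher. Lefty1 read 10.15 in p110 alpha Max-null ESCs and 12.21 in Max-null ESCs, 4.18-fold lower, beside Lefty2 above. Under Dox, Lefty1 read 8.64 against 11.10 and 10.76, and Lefty2 5.66 against 8.08 and 7.75. Both p110 alpha arrays were thus below all 3 Max-null arrays for both genes. The parental arrays differed the same way, with -1.73 for Lefty2 and -1.06 for Lefty1, replicate 2 minus replicate 1. Eomes and Mixl1, which Nodal signalling raises in the embryo, differed by -0.86 and 0.32. In the list of BMP, Id and Nodal genes, Smad6, an inhibitor of BMP signalling, was 2.09-fold lower and Id2, a BMP target, 2.16-fold higher. Smad6 dropped under 2-fold with quantile normalisation, at -0.96.

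Markers of other cell types gave few calls, to be read beside 1.34% higher and 4.78% lower among all genes. Among 14 primitive endoderm genes Sox7 alone was at least 2-fold higher, at 6.29 in p110 alpha Max-null ESCs and 4.17 in Max-null ESCs, and Gata6 and Sox17 stood at 5.17 and 5.18 against 4.67 and 4.71. Among 10 neural genes 2 were higher (Sox1 and Ncam1) and 1 lower (Map2), all 3 under 2-fold with the mean of their probe sets. Krt7 was lower among 13 trophoblast genes, at 4.20 and 6.04. Of 15 fibroblast markers measured, for feeder cells, 9 passed the filter. Their summed level was 12.37 in p110 alpha Max-null ESCs and 12.89 in Max-null ESCs on the log2 scale. Fn1 by itself read 12.27 and 12.78, so this sum is mostly that of Fn1. Pdgfrb alone passed 2-fold, at 5.38 and 7.52, and the part of feeder cells in the other results was not tested.

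Other lists held fewer such genes, to be read beside 1.34% higher and 4.78% lower among all genes. Of 15 interferon response genes 3 were lower (Ifitm1, Ifi35 and Psmb9), and Ifitm1 read 10.59 in p110 alpha Max-null ESCs and 12.57 in Max-null ESCs. Ifi35 dropped under 2-fold with the mean of its probe sets, at -0.98. Of 20 Nrf2 and glutathione genes 4 were lower (Gpx2, Gstm1, Mgst1 and Gsr) and 1 higher (Slc7a11), which is in the ATF4 list too. Of the 4 lower genes, Gstm1 and Mgst1 dropped under 2-fold with the mean of all probe sets, at -0.93 and -0.48, and Gsr with quantile normalisation, at -0.96. Gpx2, a glutathione peroxidase, read 6.36 in p110 alpha Max-null ESCs and 8.28 in Max-null ESCs. Of 23 imprinted genes 5 were higher (Grb10, Mirg, Xist, Igf2 and Kcnq1ot1) and 1 lower (Slc38a4), and 3 of these 6 dropped under 2-fold in an alternative. The imprinted list had a median of 0.34 in the pair and 0.78 between the parental arrays, replicate 2 minus replicate 1. Grb10, which binds insulin and IGF receptors, read 12.11 and 10.53, and under Dox 11.99 against 8.93 and 7.93.

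Cell cycle, respiration and chaperone genes held few such differences. Their counts are to be read beside 1.34% higher and 4.78% lower among all genes. Of 30 DNA replication and mitosis genes 3 were lower, Ccne2, Aurkb and Ccnd1, between -1.30 and -1.02. Of these, Aurkb and Ccnd1 dropped under 2-fold in an alternative. Of 26 genes of oxidative phosphorylation and the TCA cycle 1 was lower, Cox7a2 at -1.12, and the median was -0.17, beside -1.44 for glycolysis and hypoxia genes. Cox7a2 dropped under 2-fold with the probe set of highest variance, at -0.97. Of 22 chaperones 1 was higher, Herpud1 at 1.30. Of 17 ERK response genes 2 were lower, Ier3 and Myc. None of 18 lysosome and autophagy genes, 23 cell adhesion genes, 14 genes of the LIF pathway, 14 PRC1.6 repressor subunits and 10 DNA methylation genes passed 2-fold. On the Y chromosome Eif2s3y was 3.71-fold lower in the pair at the low levels given above, and under 2-fold with the mean of its probe sets (-0.96).

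A fit over the 5 Max-null arrays set the line difference against the spread left by its terms. The fit had a term for line (2 p110 alpha arrays, 3 Max-null arrays), a term for Dox and 2 residual degrees of freedom. No condition has a replicate among these arrays. The spread therefore mixes array noise with the gap between Dox days and any dependence of the line difference on Dox. With limma and Benjamini-Hochberg adjustment at 0.05, 0 of 13535 genes passed for line, with a smallest adjusted p of 0.0762, and 1394 had an unadjusted p under 0.05 (588 higher, 806 lower). The coefficients with the smallest p values include G0s2, at 3.16 ± 0.29 (SE), Rhpn2, at -2.84 ± 0.26, A2m, at -3.84 ± 0.38, and Selenop, at -4.06 ± 0.42, all with a limma adjusted p of 0.0762. Left out 1 array at a time, the fit passed between 0 and 1477 genes. The 1477 passed without either untreated array, when only the Dox arrays bear on the line difference with 1 residual degree of freedom, and 37 passed without the p110 alpha Dox array, 117 without Max-null day 4 and 0 without day 6. This fit averages the untreated and Dox differences and does not test the untreated pair itself.

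The untreated difference was little shared with the difference under Dox. Across the 13212 genes, which share their 2 arrays in each difference, the untreated differences correlated with those under Dox at r = 0.17 against day 4 and 0.12 against day 6. Of the 177 higher genes, 125 (70.6%) lay above 0 in both Dox differences, beside 47.8% of all genes, and 63 (35.6%) were at least 2-fold higher in both. Of the 632 lower genes, 303 (47.9%) lay below 0 in both, beside 33.1% of all genes. Among these 632, 111 (17.6%) were at least 2-fold lower in both and 44 (6.96%) at least 2-fold higher in both. The share of all genes at least 2-fold apart in both Dox differences was not counted, so these 2-fold counts have no background. Both p110 alpha arrays were above all 3 Max-null arrays for 121 (68.4%) of the higher genes, beside 16.4% of all genes, and below for 287 (45.4%) of the lower ones, beside 14.0%. The pair chose these genes and is part of the last 2 counts.

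**Figure D5:**
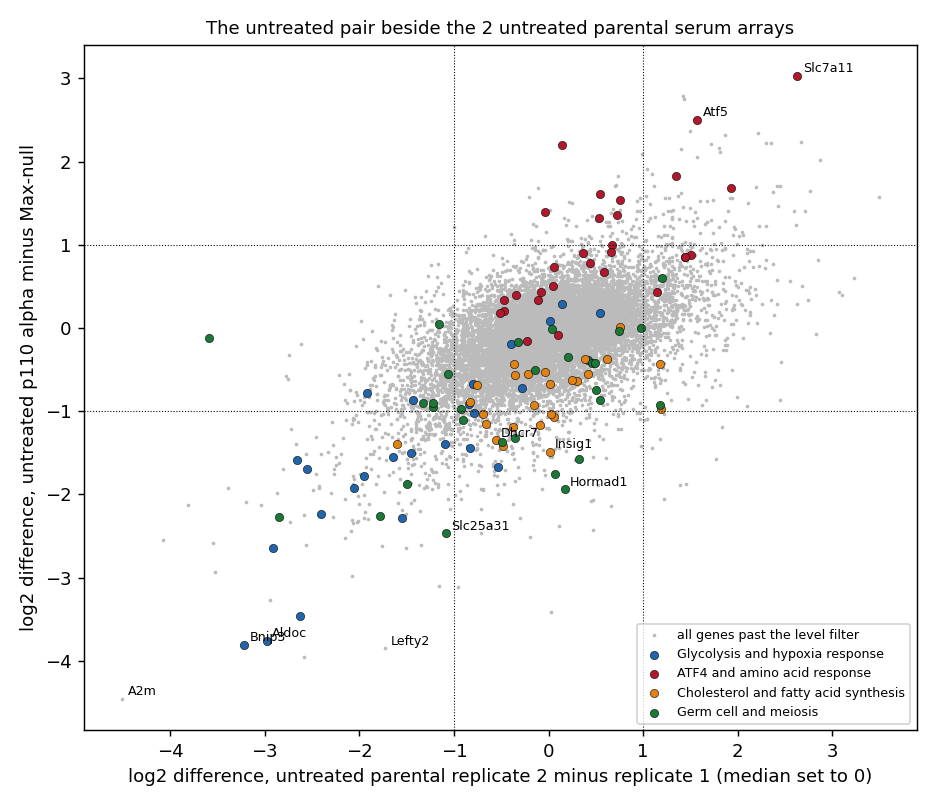
Log2 difference of the untreated pair, p110 alpha Max-null minus Max-null (vertical axis), against that of the 2 untreated parental serum arrays, replicate 2 minus replicate 1 with the median set to 0 (horizontal axis), for 13212 genes. Coloured points are members of 4 gene lists and dotted lines mark 2-fold. Glycolysis and hypoxia genes spread along the diagonal to the lower left, and cholesterol genes lie below 0 around the middle of the horizontal axis.

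The difference between the 2 untreated parental arrays bears on the size of the pair. Relative to the median shift, 891 genes (6.74%) were at least 2-fold higher and 970 (7.34%) at least 2-fold lower in replicate 2 than in replicate 1, more than in the pair, though these 2 arrays appear to come from separate normalisation runs. Of the 177 higher genes of the pair, 97 (54.8%) were at least 2-fold higher in parental replicate 2 too, and of the 632 lower genes 316 were at least 2-fold lower. In the opposite direction there were 1 and 11. Across all 13212 genes the 2 differences correlated at r = 0.56, with no array in common, as the plot against the parental replicates shows. Without the genes shared in direction, 396 were left, 80 higher and 316 lower.

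Of the other 4 untreated serum arrays, 3 correlated more closely with the p110 alpha array and parental replicate 1 with the Max-null array. Over all probe sets parental replicate 1 correlated at r = 0.965 with the p110 alpha array and 0.978 with the Max-null array, and parental replicate 2 at 0.992 and 0.983. For 58.9% of all genes the p110 alpha array lay nearer than the Max-null array to the mean of parental replicate 2 and the wild-type and T58A c-Myc arrays. This held for 112 (63.3%) of the higher genes and 516 (81.6%) of the lower genes. At 2-fold, p110 alpha Max-null minus parental replicate 2 gave 104 higher and 136 lower genes, and Max-null minus the same array gave 701 higher and 246 lower. For A2m the p110 alpha array read 5.61 and the Max-null array 10.07, against 4.59, 5.71 and 5.16 in parental replicate 2 and the arrays with wild-type and T58A c-Myc, and 8.89 in parental replicate 1. For Lefty2 those 4 arrays read 6.99, 7.87, 8.62 and 8.52, all nearer to 7.19 in p110 alpha Max-null ESCs than to 11.04 in Max-null ESCs. The p110 alpha overexpression and the state of the single Max-null array cannot be told apart in this pair.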

How the data were processed

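RNA was measured on Affymetrix mouse arrays, 1 per sample, from TRIzol extracts labelled as biotinylated cRNA, per the labels' protocols. The deposited values are log2 levels, for which the authors used RMA and affy, per the submitters' processing notes. Versions and settings are not given in the sources used here, and no depth stands behind an array value, so the number of arrays limits the precision. Of 45101 probe sets, 34958 named 1 gene, 932 several and 9147 none, beside 64 controls, and 34754 matched a RefSeq gene by identifier.

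Groups were taken from sample titles. Differences were computed with pandas 2.3.3 and numpy 2.4.6. The 5-array fit used limma 3.58.1 (lmFit, eBayes, 2-sided) in R 4.3.3 on genes above 4.64 in at least 2 arrays. On simulated data it recovered 199 of 200 genes given a log2 change of 3, with 8 false calls among 13535 genes. The simulated noise was independent and the effects were additive, so this checks the computation and not the power in these arrays. Separate cultures are not stated, so p-values measure the spread between these arrays, which hold no replicate of a condition. The members, the 34 lists and the tests were chosen with earlier results of these data known. Named genes are the 15 largest differences each way, the 4 largest of each list described, any further member at least 2-fold apart, and the manipulated genes, and any other gene (such as Asns, Psat1, Phgdh, Atf4, Gapdh, Vegfa, Stra8, Sycp3, Uty and Cdkn1a) was chosen after its values were seen. Some list members are not reported here. Alternatives changed the level filter, scaling, probe set, fold, prior, covariate and arrays used. Promoter windows were 250 bases upstream, from RefSeq on GRCm38.p6.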

Additional observations from a re-analysis of the deposited data

Results flagged for a closer look

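For 3 named genes the untreated difference and both Dox differences pointed in opposite directions, each by at least 2-fold, and the change between them was not tested because each value rests on 1 array per line. Igf1r, the IGF receptor, differed by -1.07 untreated, at 7.45 in p110 alpha Max-null ESCs and 8.52 in Max-null ESCs, and by 1.07 and 1.17 under Dox. Id2, a BMP target, differed by 1.11 untreated, at 8.50 and 7.39, and by -1.46 and -2.47 under Dox. Mgst1, a microsomal glutathione transferase, differed by -1.09 untreated, at 6.15 and 7.23, and by 1.37 and 2.00 under Dox. The untreated value of Mgst1 dropped under 2-fold with the mean of all probe sets, at -0.48, and with quantile normalisation, at -0.95. That of Igf1r did so in both as well, at -0.55 and -0.98, and with the probe set of highest variance, at -0.95. Id2 stayed between 1.09 and 1.29 in these alternatives and with centring. In all 3 the p110 alpha arrays with and without Dox lay closer together than the untreated Max-null array and either Max-null Dox array did. For Mgst1 this was by little, since the p110 alpha arrays also differed, at 6.15 untreated and 7.33 with Dox. The Max-null arrays read 7.23 untreated and 5.97 and 5.33 with Dox.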

How the results depend on the processing

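The 809 genes at least 2-fold apart (177 higher, 632 lower) became 2648 (704 higher, 1944 lower) at 1.5-fold. In an alternative chosen after seeing the data, 396 were left (80 higher, 316 lower) without the genes as far apart the same way between the parental replicates. Level filters, scaling and the probe set read kept the count between 593 and 953, within 1.5 times. The median of all genes moved by -0.03 with centring and by 0.04 with quantile normalisation. The germ cell median was -0.79 with quantile normalisation and -0.75 with no level filter, the cholesterol median -0.66 and the ATF4 median 0.75 with the mean of all probe sets, and the cause was not tested. Of 120 named genes at least 2-fold apart, 36 dropped under 2-fold in at least 1 of 4 alternatives and 0 reversed. For the line fit over 5 arrays, the count of 0 was kept with another level filter, centring, the mean of probe sets, no Dox term and another prior, and leaving out 1 array gave between 0 and 1477, with 1 residual degree of freedom. No paired analysis was possible because the groups share no replicate numbers beyond a single array each. Levels under 4.64 limit how exactly a fold can be read. Among the 15 largest differences each way, Slc7a11, Fbln5, Ptgs2 and Sox7 had such a level in Max-null ESCs. Pdcl2, Fam183b, Selenop, H2-Q2 and Zc3h6 had one in p110 alpha Max-null ESCs. Each of these genes passed the level filter only through the other array of the pair.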
